A study of Mus musculus with 6 samples.

Results

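The heat shock proteins, their J-domain partners, the chaperonins and the heat shock factors were followed across the exit of mouse embryonic stem cells (ESCs) from naive pluripotency. Genes were taken by symbol: HSP70 and HSP110 proteins (Hspa), small heat shock proteins (Hspb), HSP90 proteins (Hsp90), Hsph1, J-domain proteins (Dnaja, Dnajb, Dnajc), the mitochondrial chaperonin genes Hspd1 and Hspe1, the cytosolic chaperonin (Cct2 to Cct8 with their paralogs), Hsf1, Hsf2 and Hsf4. The rule used symbols alone and no measured value, and it took 84 of the 24736 genes in the table. Of these, 74 had enough reads to be tested, among 14468 genes tested in all.

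Gene expression was measured by strand-specific RNA-seq of polyA RNA, with single-end reads of 76 nt, in 3 libraries labelled as biological replicates of ESCs (0 h) and 3 of epiblast-like cells (EpiLCs, 48 h). All cells were wild type (WT) and came from a single parental XY ESC line, HM1 TetON, which carries the rtTA transactivator at Rosa26. ESCs were kept on mitotically inactivated fibroblast feeders in knockout DMEM with serum and LIF. For EpiLCs, the cells were separated from the feeders and grown without serum in N2B27 medium with bFGF and LGK974, an inhibitor of WNT secretion. The labels and the results text of the study give 48 h for EpiLCs, whereas its culture methods give a longer time. Serum, LIF, feeders, medium and time changed together and cannot be told apart.

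Molecular chaperones hold or refold unfolded chains. HSP70 proteins bind short exposed stretches under the control of J-domain proteins, which bring substrates and start ATP hydrolysis, and of exchange factors such as the HSP110 proteins, whereas HSP90 acts later on kinases, receptors and other clients. Small heat shock proteins hold aggregation-prone chains without ATP, and the chaperonins enclose chains in ring-shaped chambers, in mitochondria (HSPD1 with its lid HSPE1) and in the cytosol (CCT, also called TRiC). Heat shock factors bind inverted repeats of GAA upstream of many of these genes, and ESCs are known for high chaperone levels.

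The upstream sequence of the genes on which the results below turn is shown with such repeats. Sequences and gene coordinates are from RefSeq (GRCm38.p6), with sequences read 5′ to 3′ along the gene. Capitals mark each match to GAANNTTC or TTCNNGAA, the core of a heat shock element, searched on both strands. The inducible HSP70 genes Hspa1a (chr17:34972157-34972406, minus strand) and Hspa1b (chr17:34959239-34959488, minus strand) are shown because their 250 bases before the start differed at only 3 positions (98.8% identical). Hspb1 (chr5:135887669-135887918, plus strand) is shown as the most abundant gene with a large decrease. The 215 bases between the start of Hspe1 and the nearest upstream start of Hspd1 (chr1:55087933-55088147, plus strand, towards Hspe1) are shown because these genes lie head to head. RefSeq gives Hspd1 another start, inside Hspe1.
Hspa1a: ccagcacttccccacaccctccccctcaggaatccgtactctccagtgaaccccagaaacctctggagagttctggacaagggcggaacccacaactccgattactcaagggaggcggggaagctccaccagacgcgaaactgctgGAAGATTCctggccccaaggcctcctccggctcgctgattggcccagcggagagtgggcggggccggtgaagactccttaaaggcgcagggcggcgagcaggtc
Hspa1b: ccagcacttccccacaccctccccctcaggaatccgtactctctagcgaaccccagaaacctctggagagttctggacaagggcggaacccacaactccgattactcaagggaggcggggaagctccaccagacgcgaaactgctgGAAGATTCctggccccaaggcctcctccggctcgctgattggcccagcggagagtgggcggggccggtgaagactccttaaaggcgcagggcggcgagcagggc
Hspb1: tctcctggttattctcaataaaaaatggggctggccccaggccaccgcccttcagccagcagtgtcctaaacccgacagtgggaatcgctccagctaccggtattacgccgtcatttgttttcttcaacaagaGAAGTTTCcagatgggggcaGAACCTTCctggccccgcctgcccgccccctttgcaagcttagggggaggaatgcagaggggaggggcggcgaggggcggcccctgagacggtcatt
Hspd1-Hspe1 interval: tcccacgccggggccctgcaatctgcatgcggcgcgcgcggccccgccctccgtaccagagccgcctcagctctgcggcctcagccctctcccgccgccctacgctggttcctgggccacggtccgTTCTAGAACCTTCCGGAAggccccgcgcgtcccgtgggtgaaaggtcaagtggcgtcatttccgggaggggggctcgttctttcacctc

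The Hspa1a and Hspa1b sequences each held 1 match, which began 104 bases before the start. Hspb1 held 2 matches, at 117 and 97 bases before the start. In the Hspd1-Hspe1 interval, 2 matches to the longer 3-repeat forms GAANNTTCNNGAA or TTCNNGAANNTTC overlapped, at 89 and 84 bases before the start of Hspe1. Windows from 250 bases before to 50 after the start were matched for 67 of the 84 genes, which had 86 windows. The short form was found in 22 of these 86 windows (25.6%), from 20 genes, and in 15.1% of all 32851 promoter windows. The long form was found in 6 of the 86 windows, which overlap in part, from 4 genes (Dnajb6, Hspd1, Hspe1 and Hsph1), and in 0.603% of all windows. Of these 4 genes, Dnajb6 was lower in EpiLCs and the others did not pass the test.

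Several chaperones of the endoplasmic reticulum (ER) carry another motif, the ER stress element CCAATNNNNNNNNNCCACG, which the unfolded protein response uses. It was found on either strand in 0.119% of all promoter windows and in 3 of the 86 windows, 1 each of Hspa5 (chr2:34772010-34772058, plus strand), Hsp90b1 (chr10:86705623-86705671, minus strand) and Dnajc3 (chr14:118937812-118937860, plus strand). These windows of 49 bases are shown, with the element in capitals, for comparison with the ER genes described later.
Hspa5: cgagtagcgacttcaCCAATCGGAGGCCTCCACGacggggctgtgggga
Hsp90b1: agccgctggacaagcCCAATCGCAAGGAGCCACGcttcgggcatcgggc
Dnajc3: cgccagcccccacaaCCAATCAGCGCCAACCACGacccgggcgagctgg

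The libraries held 16967741 to 35096210 expected counts, and a floor of 3 counts corresponded to 0.0855 to 0.177 CPM (counts scaled to the library total), covering counting error only. Naive ESC markers were lower in EpiLCs for 8 of 8 genes and EpiLC markers higher for 5 of 5, in the direction of the labels, and 4 of 5 primitive endoderm markers were lower, among them Pdgfra, which is also in the fibroblast list. The ESC libraries differed among themselves in fibroblast markers. Their summed level was 379.5, 1637 and 138.2 TPM (transcript abundance scaled for length and library) in ESC replicates 1, 2 and 3, and 101.5 to 112.6 TPM in EpiLCs. Of 15 fibroblast markers, 12 had their highest ESC level in replicate 2 and their lowest in replicate 3, 6 of 13 tested were lower in EpiLCs, and 2 were below 1 TPM in every library. The same order was found in 25 of the 74 chaperone genes tested, and the ESC replicate 2 level exceeded that of replicate 3 by at least 2 times in Dnaja4, Dnajb4, Hspa1a and Hspa1b. The share of all genes tested with this order was not counted, so it cannot be read as a trait of the chaperone genes. In bulk RNA, fewer cells of a type and less RNA per cell cannot be told apart.

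The summed level of the chaperone genes differed little between ESCs and EpiLCs, and the median absolute log2 fold change was larger among the less abundant genes. The summed TPM was 28882 ± 743.3 in ESCs and 27657 ± 964.7 in EpiLCs (mean ± SD, n = 3), or 2.89% and 2.77% of all TPM. By edgeR's quasi-likelihood test with Benjamini-Hochberg adjustment over all genes tested, 29 of 74 genes (39.2%) passed an adjusted p of 0.05, against 45.4% of all genes tested. Of these, 9 (12.2%) were higher in EpiLCs, against 22.6% of all genes, and 20 (27%) were lower, against 22.8%. With limma on log2(TPM + 1), the split was 12 higher and 16 lower. An absolute log2 fold change of at least 1 was reached by 7 of the 74 (9.46%), against 20.2% of all genes. The median log2 fold change (EpiLC over ESC) was -0.07, beside -0.0017 for all genes tested, and the median absolute log2 fold change was 0.21, beside 0.38. Among the 29 genes with a mean of at least 100 TPM the median absolute log2 fold change was 0.13, and among the 45 tested genes below it 0.32. With the sign kept, these medians were -0.07 and -0.10. All genes were not split by level, so neither this split nor 0.21 beside 0.38 can be read as a trait of chaperone genes. The number of genes called changed with the libraries in the fit, among the chaperone genes and among all genes. Without EpiLC replicate 1 it was 3 higher and 11 lower, without EpiLC replicate 2 it was 5 and 10, and 4 were higher without EpiLC replicate 3. In these fits 28.7%, 32.2% and 35% of all genes tested were called.

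**Figure D1:**
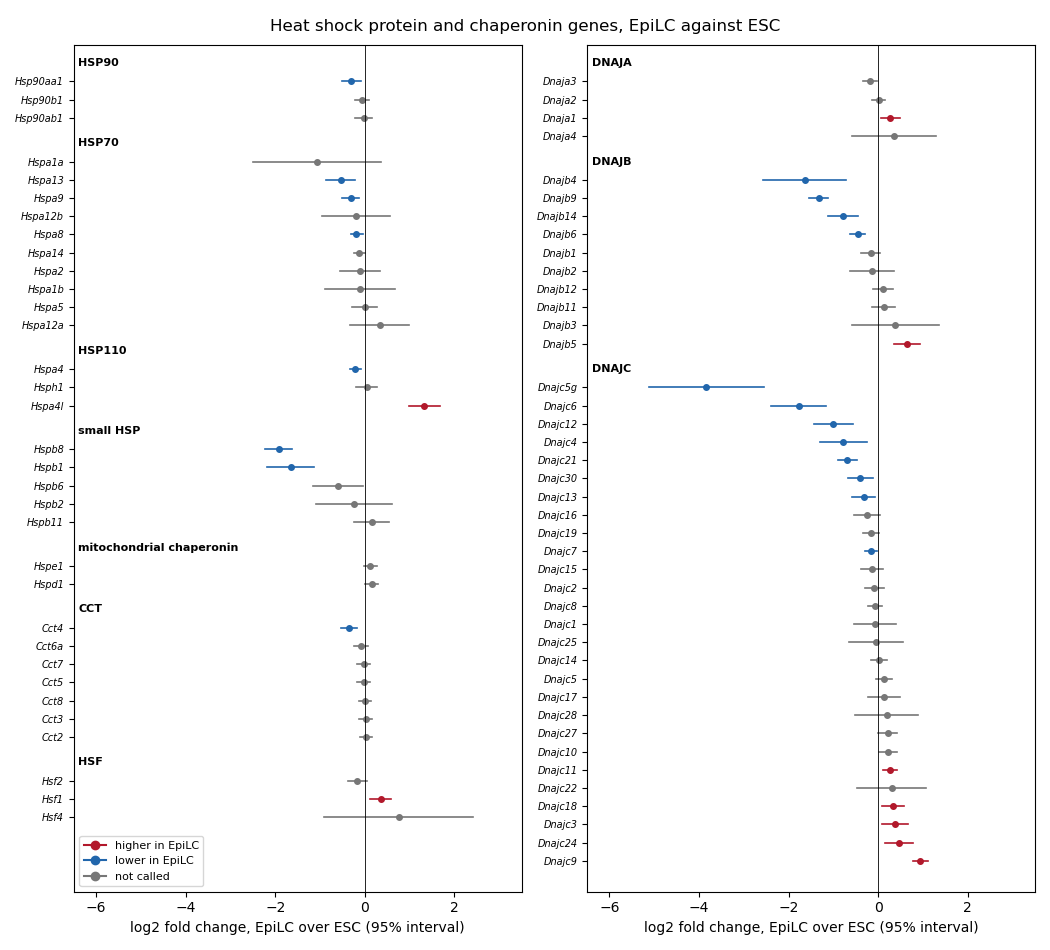
Log2 fold change of EpiLCs over ESCs (points, with 95% intervals as lines) for the 74 tested genes, grouped by chaperone class. Most points lie close to 0, the CCT genes within a narrow band, and the larger falls are among small heat shock proteins and J-domain proteins.

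The small heat shock proteins were lower in EpiLCs as a summed level, through Hspb1 and Hspb8. Their summed TPM was 328.4, 494.2 and 334.7 in ESC replicates 1 to 3 and 158.6, 157.1 and 131.1 in EpiLC replicates 1 to 3, so that the mean in EpiLCs was 0.386 times that in ESCs. Of 8 genes, 5 were tested and 2 of these were lower, beside 22.8% of all genes tested.

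Hspb8, whose product works with BAG3 in the autophagic removal of misfolded proteins, lies at chr5:116408491-116422864. It was measured at 36.6, 40.8 and 36.8 TPM in ESCs and at 10.2, 9.14 and 11.8 TPM in EpiLCs. The ESC libraries were close together and all of them lay far above the EpiLC libraries. Its log2 fold change was -1.92 (SE 0.13, edgeR adjusted p = 0.000132).

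Hspb1 (HSP27), a holdase that also binds actin filaments, lies at chr5:135887919-135889563. Its level was 252.7, 422.4 and 263.1 TPM in ESCs and 113.1, 110.01 and 83.7 TPM in EpiLCs. ESC replicate 2 stood above the other ESC libraries, but every ESC library was above every EpiLC library. The log2 fold change was -1.66 (SE 0.22, edgeR adjusted p = 0.00137). ESC replicate 2 was also the library with the highest fibroblast markers, and without it the log2 fold change of Hspb1 was -1.39 (edgeR adjusted p = 0.000475, range over all alternatives 2.13e-13 to 0.00818). In ESC replicate 3, where fibroblast markers were lowest, Hspb1 stood between the other ESC libraries. The part of fibroblasts in its level was not tested.

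The other small heat shock proteins did not pass the test. Hspb6, which is best known from muscle, had a log2 fold change of -0.60 (edgeR adjusted p = 0.0712), Hspb2 -0.24 and Hspb11, in spite of its name a component of intraflagellar transport, 0.15. Hspb3, Hspb7 and Hspb9 were too low to be tested. The lens and muscle relative Cryab, which the symbol rule leaves out, stood at 14.9, 56.7 and 6.79 TPM in ESCs and 8.37, 7.33 and 4.62 TPM in EpiLCs. Its groups overlapped, and its log2 fold change of -1.91 did not pass the test (edgeR adjusted p = 0.0665). It followed the order of the fibroblast markers over the ESC libraries, and their part in its level was not tested.

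**Figure D2:**
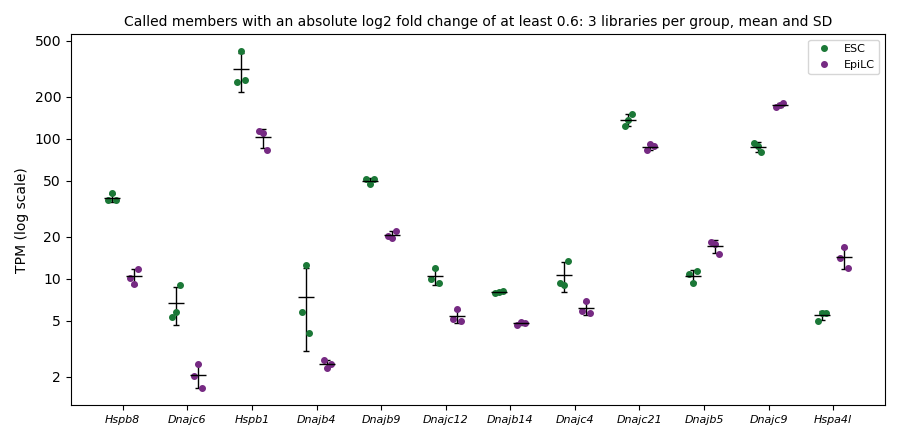
TPM (log scale) in each library of the 12 genes that passed the test with an absolute log2 fold change of at least 0.6 and a mean of at least 1 TPM (green, ESC; purple, EpiLC; bars, mean and SD of 3 libraries). The groups do not overlap in these genes, and Hspb8, Hspb1, Dnajb4, Dnajc12 and Hspa4l have their highest ESC value in replicate 2, the middle green point.

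The J-domain genes (Dnaj) were called in both directions. Of 10 DNAJB genes tested, 1 was higher and 4 were lower, and of 27 DNAJC genes 5 were higher and 8 lower, whereas 1 of 4 DNAJA genes was higher, beside 22.6% of all genes tested that were higher and 22.8% that were lower. The summed TPM of the DNAJB genes was 555.1 ± 42.9 in ESCs and 463.5 ± 7.42 in EpiLCs, and that of the DNAJC genes 1655 ± 21.7 and 1687 ± 40.4. The DNAJC counts were lowest without EpiLC replicate 1 or 3 for genes that were higher (1 each), and without any 1 EpiLC replicate for genes that were lower (4 each), in fits that called 28.7% to 35% of all genes tested. Without ESC replicate 3, where 45.8% of all genes tested were called, they were 3 and 5. Without ESC replicate 1 or EpiLC replicate 2, where 37.4% and 32.2% were called, 3 were higher.

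Dnajb9 (chr12:44205897-44210068) encodes ERdj4, an ER-resident J-domain protein that binds the stress sensor IRE1 and promotes removal of misfolded proteins. It was measured at 51.4, 47.3 and 51.5 TPM in ESCs and at 20.2, 19.7 and 22.0 TPM in EpiLCs. Replicates agreed closely and the groups were far apart. The log2 fold change was -1.33 (SE 0.09, edgeR adjusted p = 0.000132).

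Dnajb4 (chr3:152181580-152210432), a cytosolic J-domain protein close to Dnajb1, was at 5.83, 12.5 and 4.09 TPM in ESCs and at 2.61, 2.29 and 2.45 TPM in EpiLCs. The EpiLC libraries were nearly level, whereas the ESC libraries were spread 3.04 times from lowest to highest, in the order of the fibroblast markers. The part of fibroblasts in the level of Dnajb4 was not tested. Its log2 fold change was -1.64 (SE 0.39, edgeR adjusted p = 0.0139). Without ESC replicate 2 it was -1.06 (edgeR adjusted p = 0.00457), and without EpiLC replicate 2 the call was lost (-1.58, edgeR adjusted p = 0.0539), within a range over all alternatives of 8.68e-05 to 0.0539.

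Dnajc6 (chr4:101496648-101642799) encodes auxilin, which directs HSC70 to uncoat clathrin vesicles and is best known from neurons. Its level was 5.31, 5.78 and 9.10 TPM in ESCs and 2.03, 2.47 and 1.66 TPM in EpiLCs. ESC replicate 3, where fibroblast markers were lowest, was the highest, and the groups did not overlap. The part of fibroblasts in the level of Dnajc6 was not tested. The log2 fold change was -1.77 (SE 0.26, edgeR adjusted p = 0.00207).

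Dnajc5g, a cysteine string protein known from testis, had a log2 fold change of -3.84 (edgeR adjusted p = 0.00179) on few reads. The size depended on the scale, at -1.10 with limma on log2(TPM + 1) and -2.92 on log2(TPM + 0.1). It had 29, 9 and 23 counts in ESCs and 3, 1 and 2 in EpiLCs. Dnajc5g thus passed the read filter only through its ESC libraries, so that a call could only be lower. The ratio of the pooled shares, 61 counts against 6, was 15 times higher in ESCs (95% exact interval 6.51 to 42.5, counting error only).

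Smaller decreases were found in J-domain proteins of several compartments. Dnajc12, a partner of the aromatic amino acid hydroxylases, was 1.99 times lower (just short of 1 on the log2 scale). The log2 fold change of Dnajb14, an ER membrane protein, was -0.79, that of Dnajc21, which acts in ribosome assembly, -0.69, and that of Dnajb6, a suppressor of polyglutamine aggregation, -0.46. Dnajb6 was the most abundant DNAJB gene, at 270.1, 291.2 and 259.8 TPM in ESCs and 205.3, 194.1 and 210.6 TPM in EpiLCs. Its groups did not overlap (SE 0.07, edgeR adjusted p = 0.00237). These 4 calls held without each library in turn. Dnajc4 (-0.78), Dnajc30 (-0.40), Dnajc13 (-0.32) and Dnajc7 (-0.16) also passed, but each call was lost without any of the EpiLC replicates (adjusted p up to 0.105, 0.123, 0.135 and 0.169). With all libraries kept, Dnajc7 and Dnajc13 also lost their calls with upper-quartile normalization, no filter or limma on TPM, and Dnajc30 with no filter. Without ESC replicate 3 the calls of Dnajc4, Dnajc13 and Dnajc7 were lost, and without ESC replicate 1 that of Dnajc7.

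Dnajc9 (chr14:20384638-20388910), a chaperone of histones H3 and H4, was the most abundant J-domain gene with a large increase. It was measured at 93.3, 89.4 and 80.3 TPM in ESCs and at 168.5, 175.1 and 179.6 TPM in EpiLCs. Every EpiLC library was well above every ESC library, with a log2 fold change of 0.94 (SE 0.07, edgeR adjusted p = 0.000186). Dnajb5, a cytosolic relative of Dnajb1, was also higher, with a log2 fold change of 0.65 (edgeR adjusted p = 0.00553). Dnajc24, which acts in diphthamide synthesis (0.46), Dnajc18 (0.34) and Dnajc11, a mitochondrial membrane protein (0.27), passed as well. The calls of these last 3 were lost without EpiLC replicate 1 or 3, and that of Dnajc18 also without ESC replicate 1, ESC replicate 3 or EpiLC replicate 2 (adjusted p up to 0.086, 0.115 and 0.0556).

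Dnaja1, a major cytosolic partner of HSC70, was the most abundant DNAJA gene. It was at 324.8, 342.6 and 271.3 TPM in ESCs and at 392.8, 379.3 and 401.8 TPM in EpiLCs, without overlap. Its log2 fold change of 0.27 (SE 0.09, edgeR adjusted p = 0.0404) lost its call without ESC replicate 1 or any of the EpiLC replicates (adjusted p up to 0.111). Dnajc8, a splicing-associated protein and the most abundant DNAJC gene, was at 352.1, 328.5 and 348.8 TPM in ESCs and 324.9, 332.7 and 356.9 TPM in EpiLCs. The groups overlapped, and the log2 fold change was -0.07 (95% interval -0.23 to 0.08). Among genes that did not pass, the 14 DNAJC genes ranged from -0.26 (Dnajc16) to 0.30 (Dnajc22), the 5 DNAJB genes from -0.17 (Dnajb1) to 0.38 (Dnajb3) and the 3 DNAJA genes from -0.18 (Dnaja3) to 0.35 (Dnaja4).

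In the HSP110 class, which supplies nucleotide exchange to HSP70, the scarcest of 3 members was higher and the most abundant was slightly lower. Hspa4l (chr3:40744500-40796103) was at 5.01, 5.74 and 5.71 TPM in ESCs and at 14.0, 16.8 and 12.0 TPM in EpiLCs. Each EpiLC library had at least 2 times the level of any ESC library, and the log2 fold change was 1.33 (SE 0.15, edgeR adjusted p = 0.000687). It was the single chaperone gene with an increase of at least 1 on the log2 scale (1.35% of those tested, against 8.78% of all genes), beside 6 with such a decrease (8.11%, against 11.5%). These 6 include Dnajc5g, which passed the read filter through its ESC libraries only.

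Hspa4 was at 499.3, 489.1 and 469.3 TPM in ESCs and at 431.1, 429.3 and 445.7 TPM in EpiLCs. All EpiLC values were below all ESC values, and its log2 fold change was -0.21 (SE 0.05, edgeR adjusted p = 0.0136). That call was lost without ESC replicate 1, EpiLC replicate 1 or EpiLC replicate 2 (adjusted p up to 0.0761). Hspa4l thus made up a small part of the pair in either state, at 0.0113 ± 0.00113 of the TPM of Hspa4 in ESCs and 0.0329 ± 0.00616 in EpiLCs. Hsph1 (HSP105) had a log2 fold change of 0.04 (95% interval -0.19 to 0.26).

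Among HSP70 genes, 3 of 10 tested were lower and 0 were higher with edgeR (0 also at an unadjusted p under 0.05, and 0 with DESeq2 or limma), beside 22.8% of all genes tested that were lower and 22.6% that were higher. Hspa8, the constitutive HSC70, was by far the most abundant. It was at 4735, 4759 and 4707 TPM in ESCs and at 4030, 4368 and 4543 TPM in EpiLCs. The ESC libraries were nearly identical and lay above all EpiLC libraries, which were more spread. The log2 fold change was -0.19 (SE 0.06, edgeR adjusted p = 0.0381), and the call was lost without any of the ESC replicates and without EpiLC replicate 1 or 2 (adjusted p up to 0.17), and also with upper-quartile normalization, no filter or limma on TPM. Hspa9 (mortalin, the mitochondrial HSP70) had a log2 fold change of -0.32 and Hspa13, a microsomal HSP70, of -0.54. Hspa9 lost its call without EpiLC replicate 1 or 2 (adjusted p up to 0.0659) and Hspa13 without any of the EpiLC replicates (up to 0.067). With EpiLC replicate 1 or 2 left out, 0 HSP70 genes were called, in fits that called 28.7% and 32.2% of all genes tested. The 7 HSP70 genes that did not pass ranged from -1.07 (Hspa1a) to 0.33 (Hspa12a).

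The inducible genes Hspa1a and Hspa1b, whose transcripts rise on heat shock, were low and variable in ESCs. Hspa1a was at 16.6, 21.7 and 3.42 TPM in ESCs and at 6.67, 9.05 and 4.70 TPM in EpiLCs. Hspa1b was at 26.8, 29.6 and 10.8 TPM in ESCs and at 20.6, 23.4 and 20.5 TPM in EpiLCs. In both genes ESC replicate 3 was the lowest of all 6 libraries, and the groups overlapped.

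Hspa1a had a log2 fold change of -1.07 (SE 0.60, edgeR adjusted p = 0.182) and Hspa1b of -0.10 (SE 0.33, edgeR adjusted p = 0.815). Of their 76-base stretches, 54% and 55.6% were shared with each other, so that the division of reads between them was uncertain. Their summed counts gave -0.40 (95% interval -1.38 to 0.57, edgeR adjusted p = 0.45). Without ESC replicate 3 both genes passed as lower, Hspa1a at -1.53 (edgeR adjusted p = 0.00504, range over all alternatives 0.00504 to 0.45) and Hspa1b at -0.43 (edgeR adjusted p = 0.0123, range 0.0123 to 0.999). The sign of Hspa1b turned without ESC replicate 1 or 2. Together the pair stood at 0.00766 ± 0.00409 of the TPM of Hspa8 in ESCs and 0.00657 ± 0.000953 in EpiLCs.

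The cytosolic HSP90 genes had the highest TPM of the chaperone genes together with Hspa8. Hsp90ab1, the constitutive form, was at 5779, 5032 and 5935 TPM in ESCs and at 5566, 5635 and 5794 TPM in EpiLCs. The groups overlapped, and its log2 fold change was -0.03 (95% interval -0.21 to 0.15, edgeR adjusted p = 0.762). Its sign turned without ESC replicate 3 and on the TPM scale.

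Hsp90aa1, the stress-inducible form, was at 4659, 4406 and 5352 TPM in ESCs and at 3877, 3924 and 4317 TPM in EpiLCs, without overlap. Its log2 fold change was -0.30 (SE 0.09, edgeR adjusted p = 0.0338). That call was lost without ESC replicate 1 or 3 and without EpiLC replicate 1 or 2 (adjusted p up to 0.126), and also with upper-quartile normalization or limma on log2(TPM + 1). Within a library, the ratio of Hsp90aa1 to Hsp90ab1 in TPM was 0.806, 0.876 and 0.902 in ESCs and 0.697, 0.696 and 0.745 in EpiLCs. Every ESC ratio was above every EpiLC ratio, a description without a test.

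**Figure D3:**
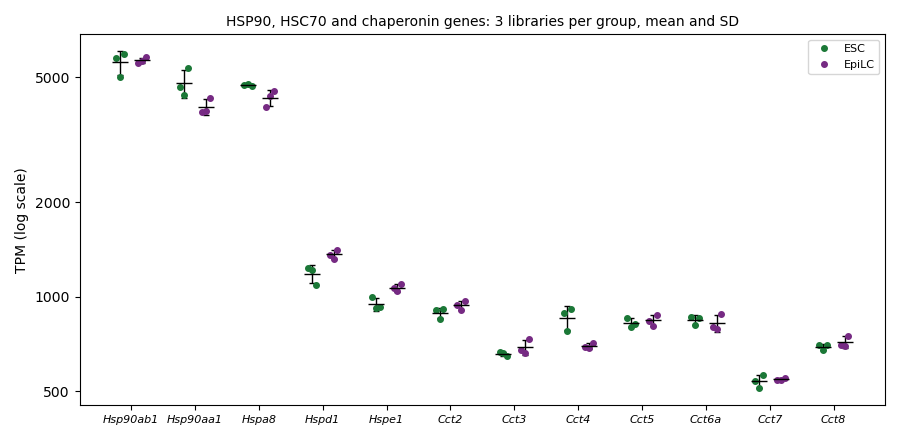
TPM (log scale) in each library of the cytosolic HSP90 genes, Hspa8 (HSC70), the mitochondrial chaperonin genes and the 7 expressed CCT genes (green, ESC; purple, EpiLC; bars, mean and SD of 3 libraries). Most genes differ little between the groups, and Cct4 is the CCT gene whose groups stand apart.

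The cytosolic chaperonin CCT folds actin and tubulin, and its subunits assemble into a ring in fixed stoichiometry. Its 7 expressed members ranged from 542.1 TPM (Cct7) to 914.3 TPM (Cct2) in mean level. Of these 7, Cct4 passed the test, as lower, beside 22.8% of all genes tested. It was at 887.4, 775.8 and 912.8 TPM in ESCs and at 691.8, 685.0 and 712.9 TPM in EpiLCs. All ESC libraries were above all EpiLC libraries, and the log2 fold change was -0.35 (SE 0.08, edgeR adjusted p = 0.00922). The call held without each library in turn, with adjusted p up to 0.0464 over all alternatives.

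Cct2 was at 906.2, 848.8 and 912.2 TPM in ESCs and at 938.8, 910.4 and 969.2 TPM in EpiLCs. These groups overlapped, with a log2 fold change of 0.03 (95% interval -0.11 to 0.17) whose sign turned without ESC replicate 2. The widest interval among the 6 genes that did not pass was that of Cct6a, from -0.24 to 0.07. Tcp1, which encodes the remaining subunit and which the symbol rule leaves out, had a log2 fold change of 0.09 (edgeR adjusted p = 0.262). The ratio of Cct4 to the mean of the other 6 expressed members was 1.17, 1.08 and 1.22 in ESCs and 0.922, 0.932 and 0.898 in EpiLCs. Cct4 was thus above that mean in every ESC library and below it in every EpiLC library. The testis paralog Cct6b was too low to be tested. Cct8l1 had 0 counts in every library, as had Dnajb7 and Dnajb8, which allows up to the floor of 3 counts given above. Dnajb13, Dnajc5b and Hspa1l were also too low to be tested, with a highest level of 0.92, 0.17 and 0.54 TPM in any library.

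The mitochondrial chaperonin genes did not pass the test, though their groups did not overlap. Hspd1 was at 1238, 1221 and 1095 TPM in ESCs and at 1364, 1322 and 1410 TPM in EpiLCs, and every EpiLC value was the higher. Its log2 fold change was 0.15 (95% interval 0.01 to 0.30, edgeR adjusted p = 0.0833). Hspe1 was at 998.4, 919.7 and 925.8 TPM in ESCs and at 1068, 1040 and 1099 TPM in EpiLCs, with the same separation. Its log2 fold change was 0.12 (95% interval -0.02 to 0.26, edgeR adjusted p = 0.127). On log2(TPM + 1) both passed as higher with limma, Hspd1 at 0.21 (adjusted p = 0.0312, range over all alternatives 0.029 to 0.192) and Hspe1 at 0.17 (adjusted p = 0.0301, range 0.0287 to 0.272). The ratio of Hspe1 to Hspd1, the genes that share the interval printed above, was 0.802 ± 0.0465 in ESCs and 0.783 ± 0.00375 in EpiLCs, and these ratios overlapped.

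**Figure D4:**
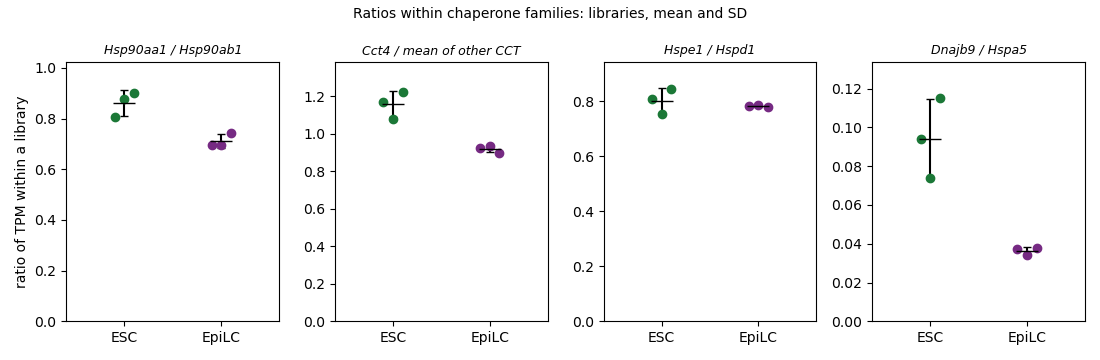
Ratio of TPM within each library for pairs of chaperone genes (green, ESC; purple, EpiLC; bars, mean and SD of 3 libraries; axes start at 0). The ratios of Hsp90aa1 to Hsp90ab1, of Cct4 to the mean of the other CCT genes and of Dnajb9 to Hspa5 do not overlap between groups, whereas those of Hspe1 to Hspd1 do.

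Compartments were assigned after the values were seen and not to every gene. Of the 10 genes assigned to the ER, 1 was higher and 3 were lower, beside 22.6% and 22.8% of all genes tested. Dnajc14, Dnajc16 and Dnajc18, the last called higher, were assigned to no compartment, so these counts may be incomplete. Dnajc3, an ER-associated inhibitor of the kinase PERK, had a log2 fold change of 0.38 and lost its call without ESC replicate 1 or 3 or any of the EpiLC replicates (adjusted p up to 0.115). The lower genes were Dnajb9, Dnajb14 and Hspa13. The major ER chaperones did not pass the test. Hspa5 (BiP) had a log2 fold change of 0.00 (95% interval -0.28 to 0.28) and Hsp90b1 (GRP94) of -0.07 (95% interval -0.23 to 0.09). Of the 3 genes shown with an ER stress element, Dnajc3 was thus called higher and these others were not called. The ratio of Dnajb9 to Hspa5 in TPM was 0.0939, 0.0738 and 0.115 in ESCs and 0.0374, 0.0342 and 0.0377 in EpiLCs, and the groups stood apart. Of 8 genes assigned to mitochondria, Dnajc11 was higher and Hspa9 and Dnajc30 were lower, or 3 called genes beside 45.4% of all genes tested.

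The heat shock factors were low in both groups. Hsf1, the main activator of the heat shock response, was at 32.2, 32.4 and 26.4 TPM in ESCs and at 40.1, 43.1 and 37.5 TPM in EpiLCs. Every EpiLC library was above every ESC library, with a log2 fold change of 0.36 (SE 0.10, edgeR adjusted p = 0.0237). Without EpiLC replicate 1 or 2 the call was lost (adjusted p up to 0.0861).

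Hsf2, which works in development and can pair with HSF1, was at 47.4, 47.7 and 52.7 TPM in ESCs and at 45.7, 42.2 and 48.4 TPM in EpiLCs. The groups overlapped, and the log2 fold change was -0.17 (SE 0.09, edgeR adjusted p = 0.164). Hsf4, known from the lens, had few reads, with 18, 4 and 3 counts in ESCs and 24, 32 and 11 in EpiLCs, and its log2 fold change of 0.76 did not pass (SE 0.70, edgeR adjusted p = 0.409). It was 1.97 without ESC replicate 1, 0.25 without ESC replicate 3 and 0.43 without EpiLC replicate 2, with adjusted p from 0.0593 to 0.764 over all alternatives. The ratio of Hsf1 to Hsf2 in TPM was 0.679, 0.678 and 0.501 in ESCs and 0.876, 1.02 and 0.775 in EpiLCs, without overlap.

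Partners of these chaperones were taken from lists outside the symbol rule. Of 20 HSP90 co-chaperones, 7 were higher and 1 was lower in EpiLCs. Among those higher, the largest difference was in the myosin chaperone Unc45b (log2 fold change 1.94), and the gene called lower was Sugt1 (-0.56). Of 12 HSP70 exchange factors and regulators, 3 were higher, led by Bag2 (0.65), and 3 were lower, led by Sil1 (-0.49), the exchange factor of BiP. Of 13 genes for CCT partners and prefoldin, which hands chains to CCT, Pfdn4 was higher (0.29) and Uri1 was lower (-0.56). Of 19 genes of ER folding and the unfolded protein response, 2 were higher, with the larger difference in the sensor Ern1 (IRE1, 0.43), and the sensor Atf6 was lower (-0.76). Of 11 genes of mitochondrial folding and proteolysis, 2 were higher, led by the protease Htra2 (0.36), and 2 were lower, led by Pmpcb (-0.36), a subunit of the mitochondrial processing peptidase. All of these are from the same edgeR test, in which 22.6% of all genes were higher and 22.8% lower. Unlike those of the chaperone genes, these calls were not checked with a library left out. Some were near the threshold, with edgeR adjusted p of 0.0463 for Ern1, 0.0416 for Htra2 and 0.0389 for Pfdn4. The other genes named ranged from 0.000489 (Sugt1) to 0.0285 (Bag2).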

How the data were processed

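Libraries were made with the KAPA mRNA HyperPrep kit and sequenced on an Illumina HiSeq instrument. Per the labels and methods, the authors trimmed reads with cutadapt 1.16, mapped them with STAR 2.5.2a to mm10 and counted them per RefSeq gene with RSEM 1.3.0, and they used DESeq2 1.16.1 for their own comparisons. The expected counts that the authors deposited are raw estimates per gene, for which RSEM splits a read with several possible origins among those genes. The authors also deposited TPM, scaled for transcript length and library, which was used for levels. Of the expected counts, 4.27% to 4.65% per library were not whole.

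Expected counts were rounded, filtered with filterByExpr, normalized by TMM (factors 0.979 to 1.02) and tested with edgeR 4.0.16 (R 4.3.3) by the quasi-likelihood test with group as the only term. P-values were adjusted by Benjamini-Hochberg over all 14468 genes tested. With 3 libraries a group, an exact permutation test of a single value cannot go below p = 0.1, so sums and ratios are given without a test. The labels call the libraries biological replicates, and the methods state that data came from independent experiments.

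Values in every library were given for called genes with an absolute log2 fold change of at least 1 and a mean of at least 1 TPM, the most abundant gene of each class, the heat shock factors, Hspa1a and Hspa1b. Those of Hsp90aa1, Hspe1, Cct4, Dnajc9, Dnajc5g and Cryab and the ratios were added after their values were seen. Of the lists outside the symbol rule, the genes with the largest change called in each direction were named. The genes and lists were chosen with earlier results of these data known. Alternatives were DESeq2 1.42.0, other normalizations and filters, a replicate block, limma 3.58.1 on TPM, the summed Hspa1 pair and leaving out each library. Stretches of 76 bases shared between genes were counted in GENCODE vM21 transcripts. Apart from Hspa1a, Hspa1b and Hspa1l, no member shared 5% or more of them with another gene.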

Additional observations from a re-analysis of the deposited data

How the results depend on the processing

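Of the 29 chaperone genes called, 13 were called in all 15 alternatives in which they could be tested, 3 as higher (Dnajb5, Dnajc9, Hspa4l) and 10 as lower (Cct4, Dnajb14, Dnajb6, Dnajb9, Dnajc12, Dnajc21, Dnajc5g, Dnajc6, Hspb1, Hspb8), and all 29 kept their sign. Dnajc5g was not tested with at least 10 counts in every library, and it passed the main filter only through its ESC libraries, which fixed the direction of its call. With a library left out, 28.7% to 48.8% of all genes tested were called, and the chaperone counts ranged from 3 to 12 higher and 10 to 20 lower in all, 0 to 1 lower for HSP90, 0 to 4 lower for HSP70, 0 to 1 lower for HSP110, 0 to 2 higher for DNAJA, 1 to 7 higher and 4 to 9 lower for DNAJC and 0 to 1 higher for the heat shock factors. Signs were followed for 38 genes, the called genes and a few others, and not for all those tested. Some of these changed sign with a library left out. Their log2 fold changes then ranged from -0.43 to 0.15 for Hspa1b, -0.10 to 0.03 for Hsp90ab1 and -0.01 to 0.07 for Cct2. DESeq2, and its size factors in edgeR, called 1 DNAJA gene lower instead of 0. The HSP90 class had 0 lower with upper-quartile normalization and with limma on log2(TPM + 1). Without a filter, 5 DNAJC genes were lower instead of 8, where 34.7% of all genes tested were called instead of 45.4%. With all libraries kept, 1 or more of the other settings also lost the calls of Dnajc7, Dnajc13, Hspa8, Hsp90aa1, Dnajc30, Dnajc4, Dnaja1 and Dnajc3, the last 3 only with the replicate block. On log2(TPM + 1) and log2(TPM + 0.1), the median log2 fold change of the genes was 0.01 and 0.02, with the median of all genes at 0.05 and 0.06, 2 mitochondrial chaperonin genes were higher, Hsp90ab1 was at 0.02 on either and Hspa1b at 0.05 and 0.06. The cause of these differences was not tested.

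With the replicate number as a block, 42.1% of all genes tested were called, against 45.4% without it, 7 chaperone genes were higher and 16 lower, 4 DNAJC genes were lower, 0 DNAJA genes were higher and Hspa1b was at 0.00059. Deviations of libraries with the same number correlated at 0.01, 0.19 and 0.17 (mean 0.12), beside a mean of -0.06 for libraries with other numbers. With so few libraries a group, these correlations cannot settle whether the numbers pair the libraries.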
